A study of Rattus norvegicus with 4 samples.

Results

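Splicing factors and RNA-binding proteins that regulate splicing were described here as 71 genes, found among 13984 rows that carry a gene ID and 17445 rows of all 4 files together. A gene was a member when its symbol was that of an SR protein (Srsf), an hnRNP protein (Hnrnp), a core or U1 or U2 snRNP protein (Snrpa to Snrpg, without Snrpn), a subunit of SF3a or SF3b, or a member of the Rbfox, Nova, CELF, PTB, ELAV/Hu, Muscleblind or STAR families. No measured value was used to choose them. Of 76 names in these families, 71 had a row with a gene ID, and Hnrnpa0 and Nova2 were matched only by new gene models that carry no gene ID. Srsf8, Hnrnpll and Snrpd3 were not analysed here. All 71 genes were listed for both sexes, and 70 passed the filter of a mean of at least 1 FPKM (the fragments assigned to a gene per kilobase of its length, scaled to the size of the library). The gene below it was Mbnl3.

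The hippocampus of Wistar rat pups was taken on postnatal day 1. The dams, 10 weeks old in the sample records, had received bisphenol A (BPA), a chemical used to make plastics with estrogenic activity, at 5000 µg/kg body weight every day from gestation day 1 until they gave birth, or the vehicle over the same days. There were 4 libraries, 1 for each sex and treatment, and each was made from 3 hippocampi pooled. Where 4 values follow each other, they belong to the control and the BPA library of the males and then to those of the females, called library order below. A difference within a sex therefore had no replicate check. When the sexes were combined, 2 BPA libraries stood against 2 control libraries, and p-values from that fit measure only the spread between these pooled libraries of either sex. The smallest p that an exact permutation of 2 against 2 allows is 0.333.

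Splicing removes introns through the spliceosome, whose U1 and U2 snRNPs recognise the 5′ splice site and the branch point. SR proteins bind exons and mostly promote their inclusion, while hnRNP proteins coat the nascent transcript and often repress exons. In neurons, Rbfox, Nova, CELF, PTB, ELAV/Hu, Muscleblind and STAR proteins add a further layer that sets which exons of synaptic, cytoskeletal and channel genes are used, and the hippocampus of a newborn rodent still contains both dividing progenitors and maturing neurons.

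The depth recovered from the steps between low values was 8660000 to 8940000 fragments per library, so 1 FPKM over 1 kb stood for 8.14 to 8.26 fragments. Markers of hippocampal excitatory neurons were present in all libraries, with all 12 listed genes at a mean of 1 FPKM or more and a sum of 1982 to 2298 FPKM. The libraries differed in markers of tissue that borders the hippocampus. The 9 choroid plexus markers, 3 of them with a mean under 1 FPKM, summed to 268, 710, 10.1 and 46.6 FPKM in library order. Ttr alone was at 256, 690, 3.96 and 42.4 FPKM. Of the 6 choroid plexus markers tested, 6 were higher in male BPA than in male control. In females 3 were higher and 3 lower. The 8 meningeal markers summed to 84.5, 86.5, 341 and 68.5 FPKM in the same order, so that female control stood above the other 3 libraries. Since 0.01 FPKM is the lowest value the files list, absence of a marker could not be read from a value of 0. The part of these tissues in the results below was not tested, and in libraries from whole tissue fewer cells of a type and less RNA per cell cannot be told apart.

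The promoters of the gene with the largest BPA difference and of the gene with the highest level are shown, since both are described below by their RNA level. RefSeq (build GRCr8, not the rn6 build named for the reads) gave 69 windows of 300 bases, from 250 before to 50 after a start, for 64 of the 71 genes. Hnrnpdl, with the largest difference, has 2 listed starts on chromosome 14, with windows chr14:9861466-9861765 and chr14:9862404-9862703 on the plus strand. Hnrnpa1, with the highest level, has its window at chr7:136253868-136254167 on the plus strand. Capitals mark matches to 3 motifs on either strand, the GC box (GGGCGG, or CCGCCC), the CCAAT box (CCAAT, or ATTGG) and the TATA box (TATAAA, or TTTATA).
Hnrnpdl, upstream start: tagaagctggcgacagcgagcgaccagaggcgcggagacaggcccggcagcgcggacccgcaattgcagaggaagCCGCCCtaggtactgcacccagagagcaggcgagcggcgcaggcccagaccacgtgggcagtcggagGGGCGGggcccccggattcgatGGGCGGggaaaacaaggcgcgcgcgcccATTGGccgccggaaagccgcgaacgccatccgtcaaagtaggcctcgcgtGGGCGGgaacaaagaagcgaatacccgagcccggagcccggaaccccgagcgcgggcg
Hnrnpdl, downstream start: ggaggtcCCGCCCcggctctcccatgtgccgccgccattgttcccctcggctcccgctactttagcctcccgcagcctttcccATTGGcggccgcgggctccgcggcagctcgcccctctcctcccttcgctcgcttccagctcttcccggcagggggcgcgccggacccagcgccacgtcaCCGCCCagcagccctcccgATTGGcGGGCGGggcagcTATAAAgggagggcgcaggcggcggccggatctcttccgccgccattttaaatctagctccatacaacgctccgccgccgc
Hnrnpa1: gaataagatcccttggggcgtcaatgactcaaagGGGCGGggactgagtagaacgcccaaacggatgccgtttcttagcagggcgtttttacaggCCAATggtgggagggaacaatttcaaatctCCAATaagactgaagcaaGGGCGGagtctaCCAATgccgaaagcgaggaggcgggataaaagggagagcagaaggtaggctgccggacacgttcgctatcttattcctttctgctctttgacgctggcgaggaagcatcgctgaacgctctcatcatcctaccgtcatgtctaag
The upstream window of Hnrnpdl held 4 GC boxes and 1 CCAAT box, the downstream window 3 GC boxes, 2 CCAAT boxes and 1 TATA box, and the window of Hnrnpa1 2 GC boxes and 3 CCAAT boxes. Over the members, a GC box was in 62.3% of windows, near the 63.6% in windows of all genes tested here and above the 33.1% over all 33469 promoter windows. A CCAAT box was in 52.2% of the members' windows and in 37.5% of those of all genes tested. A TATA box was in 13.0% and 6.41%. Over all promoter windows the shares were 37.5% for the CCAAT box and 14.2% for the TATA box. The median GC content was 61.0% for members and 61.3% for all genes tested. The median ratio of observed to expected CpG was 0.875 and 0.780, against 0.392 over all promoter windows. These matches are a description of letters in the windows and were not related to the expression values.

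The 71 genes spanned a wide range of levels, with medians that differed between families. Their FPKM summed to 5816, 5841, 5819 and 6204 in library order. FPKM is a level per length, so genes can be compared on it. The median of the 70 genes was 68.9 FPKM, against 13.4 FPKM over the 10857 rows with a gene ID that passed the same filter in all 4 libraries. hnRNP proteins had the highest median of the larger families (127 FPKM), followed by the snRNP proteins (61.4 FPKM), the SR proteins (42.8 FPKM) and the subunits of SF3a and SF3b (40.9 FPKM). Among the neuronal families, the median was 90.6 FPKM for STAR and 89.9 FPKM for CELF, above those of the snRNP, SR and SF3 genes, and 35.7 FPKM for Rbfox, 34.9 FPKM for PTB and 34.4 FPKM for ELAV/Hu. Nova1 (11.6 FPKM) and the 2 Muscleblind genes past the filter (5.85 FPKM) were lowest.

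**Figure D1:**
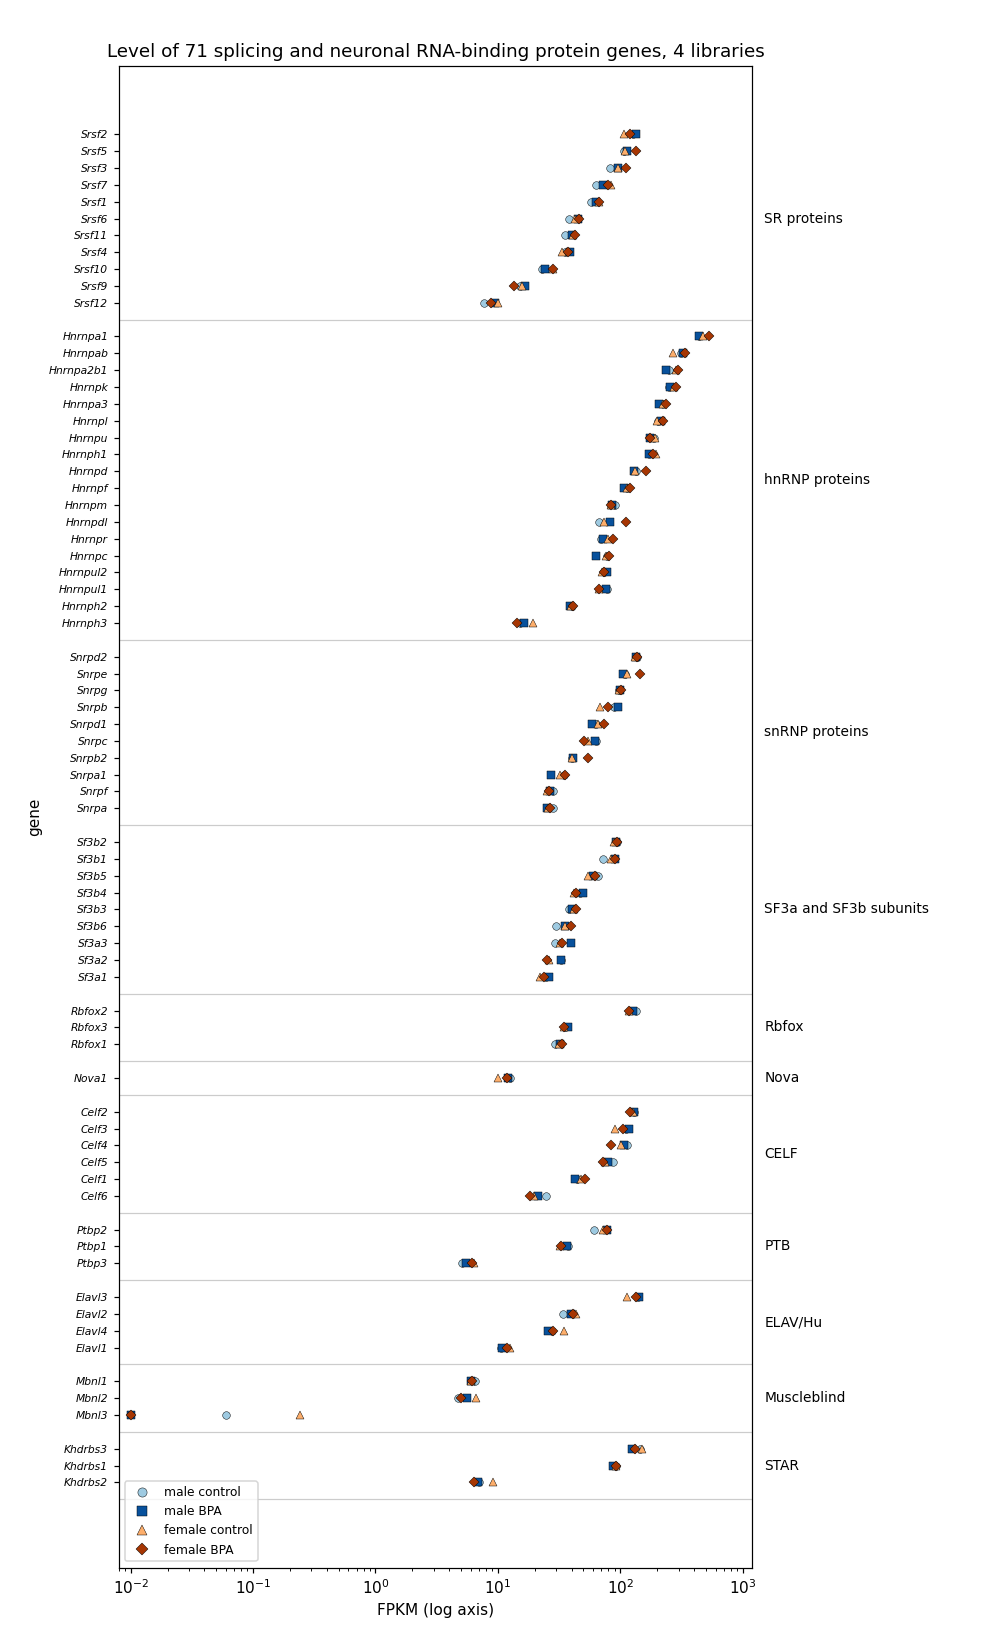
Level of each of the 71 genes in FPKM on a log axis, grouped by family, with 1 point for each of the 4 libraries and no error bars. The points of most genes lie close together, Hnrnpa1 is highest at 435 to 527 FPKM, and Mbnl3 lies at 0.01 to 0.24 FPKM, below every other gene.

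Among the hnRNP proteins, Hnrnpa1, an exon repressor that also shuttles mRNA out of the nucleus, was at 443, 435, 477 and 527 FPKM in library order. Hnrnpab was at 312, 326, 269 and 338 FPKM. Hnrnpa2b1, which also takes part in RNA transport along neuronal processes, was at 248, 235, 284 and 295 FPKM. Hnrnpa1 was above the other hnRNP genes in every library, while Hnrnpab and Hnrnpa2b1 changed places in female control. The lowest was Hnrnph3 at 15.2, 16.2, 19.5 and 14.2 FPKM. Hnrnpa1 and several genes of the core snRNP proteins are known to have near-identical processed copies, and reads shared with such copies were not measured here.

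The SR proteins were led by Srsf2 at 126, 135, 107 and 120 FPKM in library order. Srsf5 followed at 107, 112, 109 and 134 FPKM and Srsf3, the smallest SR protein, at 82.8, 95.3, 95.3 and 112 FPKM. The ranges of Srsf2 and Srsf5 over the libraries overlapped, and Srsf5 was the higher of them in both female libraries. Those of Srsf5 and Srsf3 also overlapped, though Srsf5 was higher in each library. Srsf12 was lowest, at 7.77, 9.52, 9.95 and 8.83 FPKM. Of the Sm proteins, which form the ring around the RNA of each snRNP, Snrpd2 was at 138, 135, 132 and 138 FPKM, Snrpe at 109, 105, 113 and 145 FPKM and Snrpg at 98.2, 99.6, 98.4 and 102 FPKM. Snrpa, a protein of the U1 snRNP, was lowest of the 10 at 28.2, 25.4, 25.6 and 26.9 FPKM, though its range overlapped that of Snrpf. Of the SF3 subunits, which hold the branch point within the U2 snRNP, Sf3b2 was at 93.6, 92.1, 88.4 and 93.8 FPKM and Sf3b1, the largest of them, at 72.0, 90.9, 84.6 and 90.8 FPKM. Sf3b5 was at 66.3, 60.0, 54.0 and 62.3 FPKM and Sf3a1 lowest at 24.6, 26.2, 22.0 and 23.9 FPKM. The ranges of Sf3b2 and Sf3b1 overlapped, and Sf3b5 lay below both in every library.

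The Rbfox, STAR, PTB, ELAV/Hu and CELF families each had the same highest member in every library. Rbfox2 held 64.8% of the summed FPKM of the Rbfox family on average over the libraries, at 134, 127, 119 and 118 FPKM. Rbfox3, whose protein is the neuronal marker NeuN, was at 35.5, 37.7, 34.9 and 34.7 FPKM, and Rbfox1 at 29.5, 32.1, 31.8 and 33.6 FPKM. Rbfox3 was above Rbfox1 in every library, by 1.03 to 1.20 times. In the STAR family, Khdrbs3 (SLM2, which sets alternative exons of neurexins) was at 146, 126, 149 and 132 FPKM. Khdrbs1 (Sam68) was at 91.7, 86.8, 92.4 and 91.4 FPKM and Khdrbs2 (SLM1) at 6.97, 6.91, 9.05 and 6.34 FPKM, so Khdrbs3 was 16.5 to 21.0 times as high as Khdrbs2. Nova1, which binds clusters of YCAY in neuronal transcripts, was at 12.6, 12.1, 10.1 and 11.8 FPKM.

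Ptbp2, the neuronal paralog that takes over from Ptbp1 as progenitors become neurons, was at 61.6, 78.2, 72.6 and 78.1 FPKM in library order. Ptbp1 was at 37.6, 36.4, 32.4 and 33.0 FPKM and Ptbp3 at 5.12, 5.44, 6.42 and 6.13 FPKM. The ratio of Ptbp2 to Ptbp1 was 1.64, 2.15, 2.24 and 2.36, so male control stood below the other 3 libraries. Of the Hu proteins, which bind AU-rich RNA, the 3 neuronal paralogs were all above the ubiquitous Elavl1 (HuR). Elavl3 (HuC) was at 138, 142, 113 and 134 FPKM, Elavl2 (HuB) at 34.3, 39.8, 43.2 and 41.4 FPKM, Elavl4 (HuD) at 27.9, 25.5, 34.8 and 28.0 FPKM, and Elavl1 at 10.5, 10.8, 12.6 and 11.8 FPKM. The ranges of Elavl2 and Elavl4 met, though Elavl2 was higher in each library.

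The CELF family was the most evenly divided of the neuronal families, with no gene above 27.4% of its sum in any library. Celf2 was at 129, 131, 126 and 121 FPKM, Celf3 at 112, 117, 91.2 and 104 FPKM and Celf4 at 113, 107, 102 and 84.6 FPKM. Celf3 and Celf4 overlapped over the libraries, as did Celf4 and Celf5, which was at 86.7, 79.4, 74.6 and 72.5 FPKM. Celf1, present in most tissues, was at 44.0, 42.8, 47.3 and 51.6 FPKM, and Celf6 was lowest at 24.8, 21.3, 19.7 and 18.3 FPKM. Muscleblind proteins, known to oppose CELF proteins at many developmentally regulated exons, lay below every CELF gene. Mbnl1 was at 6.52, 6.05, 6.07 and 6.20 FPKM, Mbnl2 at 4.70, 5.60, 6.67 and 5.01 FPKM, and Mbnl3 at 0.06, 0.01, 0.24 and 0.01 FPKM, where 0.01 is the lowest value the files list. The values of Mbnl1 and Mbnl2 overlapped.

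**Figure D2:**
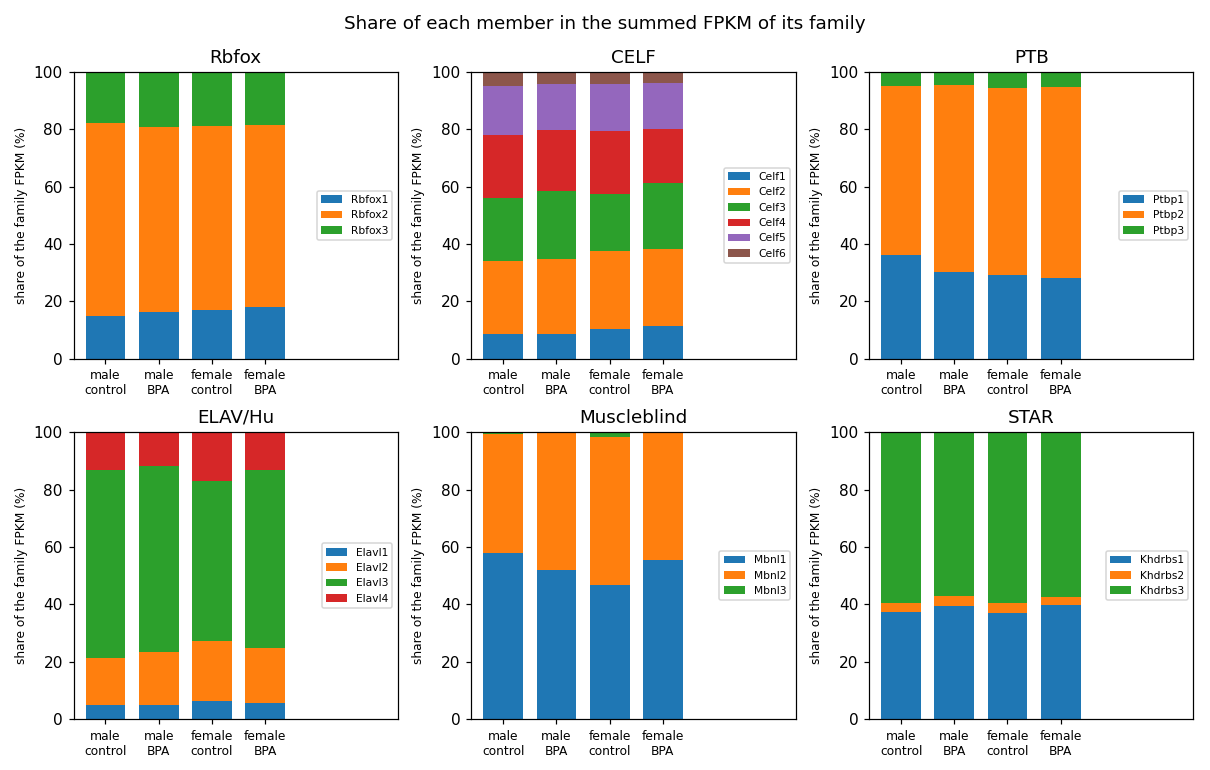
Share of each member in the summed FPKM of its family (percent, stacked to 100) in the 4 libraries, for 6 neuronal families, without error bars. Rbfox2, Ptbp2, Elavl3 and Khdrbs3 take the largest share of their families in every library, whereas Mbnl1 and Mbnl2 change places in female control.

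In the comparison of BPA with control, sexes combined, no member passed the test. limma on log2(FPKM + 1) gave 0 of 70 genes at a Benjamini-Hochberg adjusted p under 0.05, and 0% of the 13542 rows tested passed it. At an unadjusted p under 0.05, limma gave 1 gene, Hnrnpdl, against 4.7% of all rows (1.6% higher and 3.11% lower), a share of members below that background. With sex as a covariate 8 of the 70 genes had an unadjusted p under 0.05 (8.98% of all rows) and 0 an adjusted one (0.0148% of all rows), the smallest adjusted p in limma being 0.261. The 2 BPA libraries lay above both control libraries in 13 of the 70 genes and below both in 4, where 13.8% and 19.9% of all rows did so. The median difference was 0.03 over the members and −0.02 over all rows, on the scale of log2(FPKM + 1) that all differences below share.

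Hnrnpdl, a paralog of Hnrnpd that regulates splicing and, by alternative splicing of its own transcript, its own level, was at 67.3 FPKM in the control and 83.0 FPKM in the BPA library of the males, and at 74.2 and 112 FPKM in those of the females. Both BPA libraries were above both controls, and female BPA was highest by a clear margin. The difference was 0.30 in males and 0.59 in females. The 95% counting interval of the log2 ratio, which covers counting error only, was 0.22 to 0.38 in males and 0.52 to 0.67 in females. Over both sexes limma gave 0.44 ± 0.15 (SE, 2 libraries against 2) with an unadjusted p of 0.0248 and a Benjamini-Hochberg adjusted p of 0.973, so the difference did not hold up against the spread between libraries once all rows were counted. Leaving out 1 library gave 0.23 (without female BPA) to 0.66 (without male BPA), with 0.37 without male control and 0.51 without female control, the library with the high meningeal markers. The ratio of Hnrnpdl to Hnrnpd, 0.496, 0.639, 0.567 and 0.688 in library order, was higher in BPA in both sexes.

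Genes with like-signed differences were ranked by the difference in whichever sex had the smaller one. After Hnrnpdl, the next by this measure were Srsf3 (0.20 in males and 0.23 in females), the branch-point protein Sf3b6 (0.24 and 0.14) and Srsf4 (0.14 and 0.14) in the upward direction. Srsf3 in female control was level with male BPA, so its groups met, and Sf3b6 was at 29.7, 35.3, 35.6 and 39.4 FPKM with the same overlap. Srsf4, at 35.3, 38.9, 33.7 and 37.2 FPKM, did not overlap between treatments. In the downward direction the first by the same measure were Khdrbs3 (−0.22 in males and −0.17 in females), Elavl4 (−0.13 and −0.30), Hnrnpu (−0.11 and −0.15) and Celf6 (−0.22 and −0.10). Hnrnpu, a scaffold protein of the nuclear matrix, was at 188, 175, 193 and 174 FPKM, and both BPA libraries lay below both controls, as they did for Khdrbs3. Elavl4 in female BPA was level with male control, and Celf6 in male BPA was above female control, so these groups overlapped. By the limma difference over both sexes the order was another, with Sf3a3 (0.24), Snrpb2 (0.22), Ptbp2 (0.22) and Sf3b1 (0.22) next after Hnrnpdl, and Khdrbs2 (−0.23), Elavl4 (−0.21) and Khdrbs3 (−0.19) lowest. Leaving out 1 library gave 0.11 to 0.34 for Ptbp2, −0.06 to −0.40 for Khdrbs2 and −0.06 to −0.37 for Elavl4. The range of Khdrbs3 was narrower, at −0.16 to −0.23. None of the 7 genes of the first ranking passed the test, with the smallest unadjusted limma p at 0.0771 (Khdrbs3, adjusted p 0.973).

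**Figure D3:**
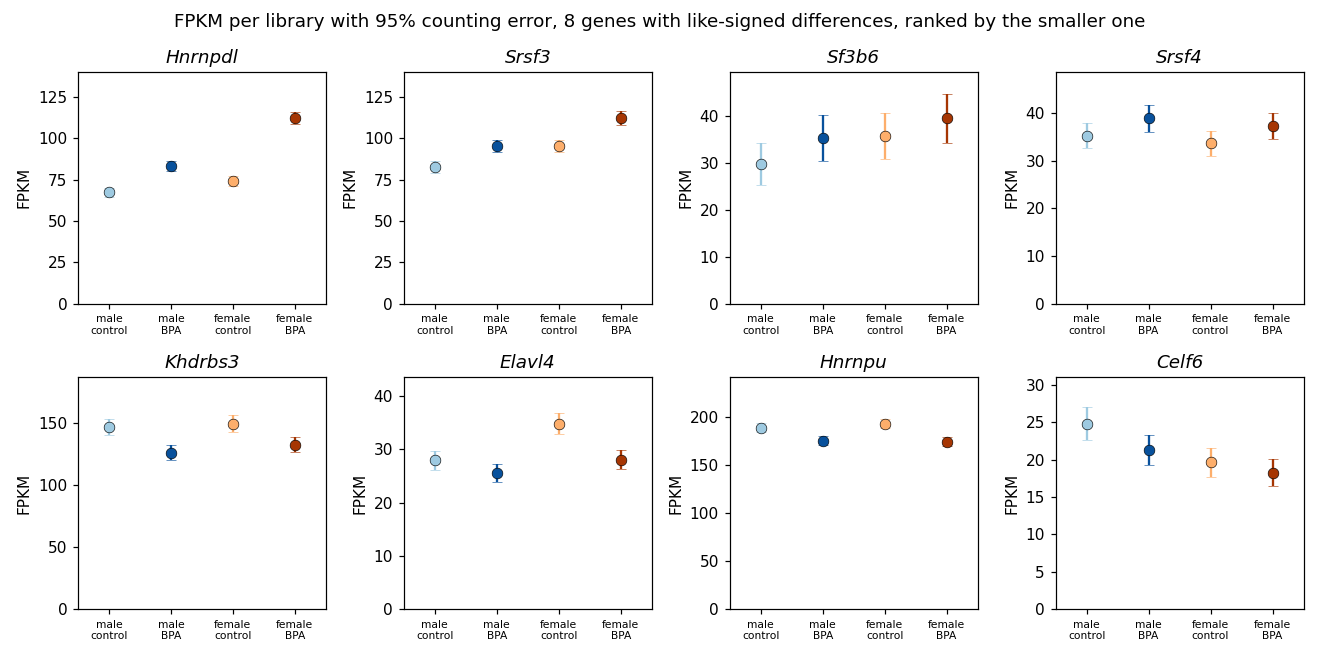
FPKM in each of the 4 libraries for the 4 genes highest in BPA (top row) and the 4 lowest (bottom row) when like-signed genes are ranked by the difference in whichever sex had the smaller one, axes starting at 0. Bars are 95% counting intervals of 1 library from the estimated fragments and hold no spread between animals. Hnrnpdl in female BPA (112 FPKM) stands clear of the other 3 libraries, while the bars of Sf3b6 overlap.

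Within males, no gene moved far. Of the 70 genes, 0 had a difference of at least 0.5 in either direction, where 7.26% of all rows and 3.46% of rows with a gene ID did, and 1.38% of those whose mean lay within the range of the members. Male BPA was above male control in 38 genes and below in 32, where 49.2% of all rows were higher. The largest differences were those of Sf3a3 (29.0 against 39.6 FPKM in control and BPA, 0.43) and Snrpa1, a protein of the U2 snRNP (34.9 against 27.1 FPKM, −0.36), genes singled out after their values were seen. The counting interval of the ratio excluded equal levels in BPA and control in 23 of the 70 genes, against 29% of all rows.

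By family, the 11 SR proteins were all higher in male BPA than in male control, by 0.07 to 0.26 with a median of 0.14, where the median of all rows was −0.002. All 11 stayed higher under quantile normalization, and the counting interval excluded equal levels in 6 of the 11. Of rows with a gene ID, 48.6% were higher. Male control was the lowest of the 4 libraries in 8 of the 11 SR proteins. Of the SF3 subunits 7 were higher and 2 lower (median 0.09). hnRNP proteins were higher in 7 and lower in 11 (median −0.02), and snRNP proteins higher in 3 and lower in 7 (median −0.05), a split that became 4 and 5 under quantile normalization. In the neuronal families, 2 of 3 Rbfox genes, 3 of 4 ELAV/Hu genes, 2 of 3 PTB genes and 1 of 2 Muscleblind genes were higher, against 2 of 6 CELF genes, 0 of 3 STAR genes and not Nova1. Ptbp2 had the largest difference of the neuronal genes in males, at 0.34 with a counting interval of the log2 ratio from 0.22 to 0.47. All 11 SR proteins come from the same pair of libraries, so their like direction counts as 1 observation, and choroid plexus markers (268 against 710 FPKM) also differed between those libraries.

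Within females, Hnrnpdl was the only 1 of 70 genes past 0.5, where 10.1% of all rows, 6.15% of rows with a gene ID and 3.18% of those within the range of the members' means were. Female BPA was above female control in 45 genes and below in 25, where 43.2% of all rows and 42.6% of rows with a gene ID were higher, and the median was 0.06 against −0.04 over all rows. Under quantile normalization, which moved rows up by a median of 0.06, 41 genes were higher and 29 lower, with a median of 0.03. Of all 13542 rows under that setting, 6797 were higher and 6697 lower, with a median of 0.001. The counting interval of the ratio excluded equal levels in 30 of 70 genes, against 37.8% of all rows. The summed meningeal markers (341 against 68.5 FPKM) and the summed excitatory neuron markers (1982 against 2298 FPKM) differed between the same libraries. Of the 12 excitatory neuron markers, 7 were higher and 5 lower in female BPA. Tubb3 alone was at 1150 FPKM in female control and 1397 FPKM in female BPA.

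By family in females, snRNP proteins were higher in 9 and lower in 1 (median 0.11, and 8 and 2 under quantile normalization), and SF3 subunits higher in 8 and lower in 1 (median 0.08). hnRNP proteins were higher in 14 and lower in 4, which became 10 and 8 under quantile normalization. SR proteins were divided, 6 higher and 5 lower. CELF genes were higher in 2 of 6, ELAV/Hu genes in 1 of 4, Rbfox genes in 1 of 3, PTB genes in 2 of 3 (3 of 3 under quantile normalization) Muscleblind genes in 1 of 2 and STAR genes in 0 of 3, and Nova1 was higher by 0.21. Elavl3 (0.24) and Elavl4 (−0.30) went in opposite directions, and so did Celf3 (0.19) and Celf4 (−0.26). The counting interval of each excluded equal levels.

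**Figure D4:**
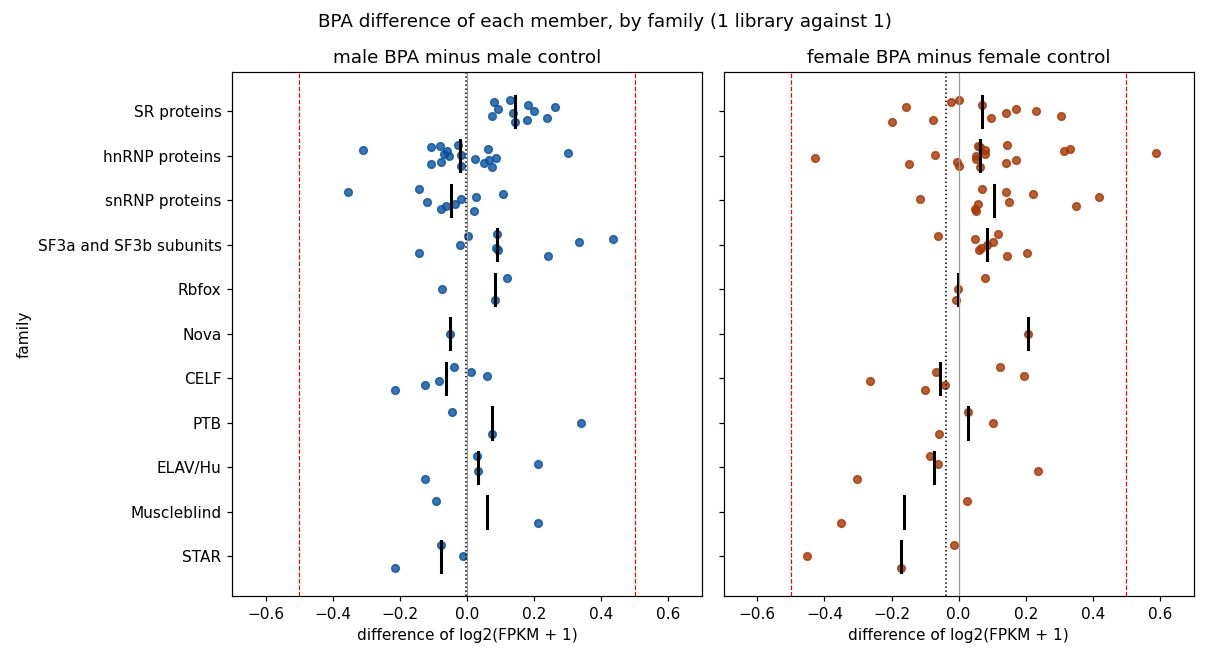
Difference of log2(FPKM + 1) between BPA and control for each of the 70 genes by family, males left and females right, 1 library against 1. Black bars are family medians, the dotted line is the median of rows with a gene ID, and the dashed lines are at 0.5 in either direction. All 11 SR proteins lie right of 0 in males and 6 of them in females, and Hnrnpdl alone passes a dashed line, in females.

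All 3 STAR genes were lower in BPA in both sexes. Both BPA libraries were below both control libraries in Khdrbs3, Khdrbs1 and Khdrbs2, where 19.9% of all rows showed this. Their sizes were unequal. Khdrbs1 differed by −0.08 in males and −0.02 in females, within counting error in both sexes. Khdrbs2 differed by −0.01 in males and −0.45 in females, where the counting interval of the log2 ratio was −0.84 to −0.18. Only Khdrbs3 had a counting interval that excluded equal levels in both sexes, and limma gave it −0.19 ± 0.09 (SE), adjusted p 0.973. The summed markers of 5 cell types were lower in BPA in both sexes as well, though not all of their genes. Cycling progenitor markers summed to 117, 104, 120 and 106 FPKM in library order, with 5 of 9 genes tested lower in males and 8 of 9 in females. Radial glia and astrocyte markers summed to 1420, 1277, 1408 and 1296 FPKM, with 7 of 10 genes lower in males and 8 of 10 in females. Interneuron markers summed to 304, 295, 274 and 245 FPKM, with 7 and 8 of 10 genes lower. These lists cover types of cell that the neonatal hippocampus holds. Oligodendrocyte lineage markers summed to 144, 113, 120 and 102 FPKM, with 6 and 5 of 8 genes lower, and endothelium and pericyte markers to 127, 119, 144 and 116 FPKM, with 5 and 8 of 8 genes tested lower. Their part in these values was not tested.

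The male and female differences had little in common. Over the 70 genes, 25 were higher in both sexes, 12 lower in both and 33 opposite. Of all 13542 rows tested, 24.4% were higher in both and 31.6% lower in both, and 5855 rows were opposite. Across these genes, which are not independent replicates, Pearson's r between the male and female difference was 0.11 and Spearman's rho 0.12 (0.18 and 0.19 over rows with a gene ID), given as a description. Ranked in the same way by size, the largest opposite differences were those of Mbnl2 (0.21 in males and −0.35 in females), Srsf12 (0.26 and −0.16), Srsf9 (0.14 and −0.20) and Sf3b5 (−0.14 and 0.20). By the gap between the sexes, Hnrnph3 (0.09 and −0.43, without its new gene models) and Snrpa1 (−0.36 and 0.14) followed Mbnl2. Of the 4 genes, only Mbnl2 in females had a counting interval of the log2 ratio, −0.68 to −0.15, that excluded equal levels. The intervals of the male values and of the remaining female ones did not. A difference between the sexes in the BPA difference was not tested, since 1 library per sex and treatment leaves no error to test against.

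**Figure D5:**
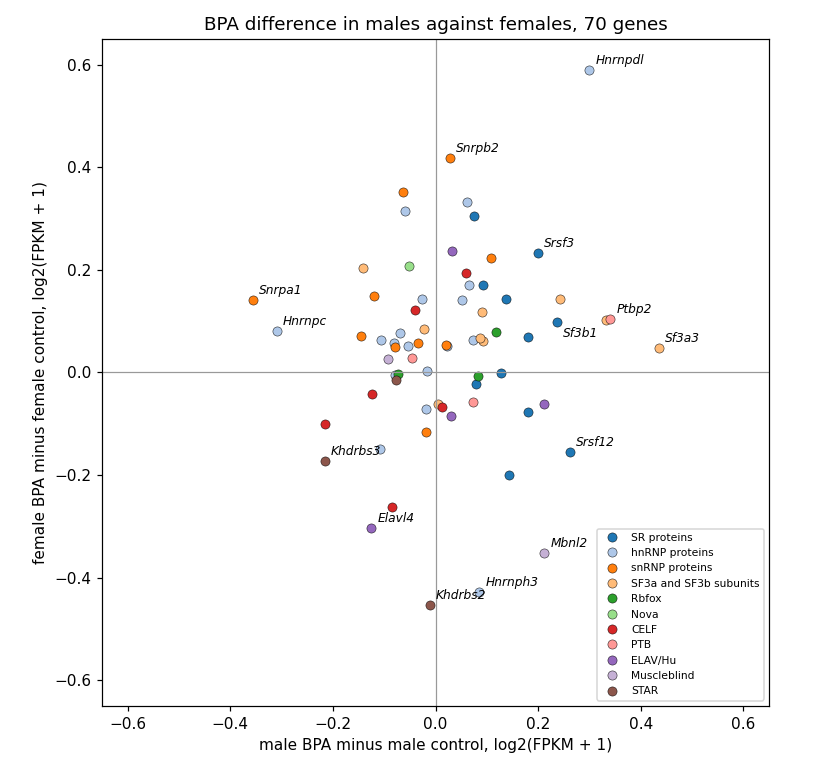
BPA difference in males (horizontal axis) against females (vertical axis), both on log2(FPKM + 1), for 70 genes coloured by family, with genes far from the centre named. Points lie in all 4 quadrants, with Hnrnpdl at 0.30 and 0.59 in the upper right and Mbnl2 at 0.21 and −0.35 in the lower right.

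Female was next compared with male, treatments combined. limma gave 0 of 70 genes at an adjusted p under 0.05 (0.00738% of all rows, 1 row) and 9 at an unadjusted p under 0.05, against 10.6% of all rows (3.88% higher and 6.76% lower in females). They were Sf3a2, Snrpb, Srsf7, Hnrnpa2b1, Snrpc, Srsf10, Celf3, Hnrnpr and Hnrnpul1, the smallest adjusted p being 0.292 for Sf3a2. With treatment as a covariate 20 genes had an unadjusted p under 0.05 (14.3% of all rows) and 0 an adjusted one in limma (0.406% of all rows). Both female libraries were above both male libraries in 21 of 70 genes and below in 19, where 19.8% and 22.5% of all rows were.

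Sf3a2, a subunit of SF3a, was at 32.5 and 32.6 FPKM in males and 26.2 and 25.1 FPKM in females, a difference of −0.33. Snrpb, the SmB protein, was at 89.3 and 96.3 FPKM in males and 68.1 and 79.6 FPKM in females (−0.33), and Snrpc, a protein of the U1 snRNP, at 63.0 and 62.2 against 54.5 and 50.2 FPKM (−0.25). Celf3 and Hnrnpul1 were lower in females as well, by −0.23 and −0.20. The other 4 of the 9 were higher in females. Srsf7 was at 63.6 and 72.2 against 84.6 and 80.1 FPKM (0.28), and Hnrnpa2b1 differed by 0.26, Srsf10 by 0.25 and Hnrnpr by 0.21. The sexes did not overlap in any of the 9, but choosing genes by p in the same fit favours this, so it is no separate evidence. The summed choroid plexus markers, at 268 and 710 FPKM in males and 10.1 and 46.6 in females, were also apart.

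By family, 5 of 6 CELF genes were lower in both female libraries than in both male ones, with Celf1 higher in both, where 22.5% of all rows were lower and 19.8% higher, and the family median was −0.20. In the ELAV/Hu family Elavl3 was lower in both female libraries (−0.18), and Elavl2 (0.19), Elavl4 (0.22) and Elavl1 (0.18) were higher in both. SR proteins had a median of 0.14 and hnRNP proteins one of 0.09, against −0.01 over all rows. None of these genes had an adjusted limma p under 0.05.

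Other genes of the splicing pathway, taken from 4 lists, gave a like picture in limma, with 0 of 100 genes at an adjusted p under 0.05 and 3 at an unadjusted one, where 4.7% of all rows had one. Of 6 kinases of SR proteins tested, 0 had an unadjusted p under 0.05. In BPA, 1 was higher and 3 lower in both sexes, where 24.4% and 31.6% of all rows were. Clk3 was at 16.1, 14.0, 15.6 and 14.0 FPKM in library order, and Srpk1 at 37.9, 34.3, 39.6 and 35.6 FPKM. Both were lower in BPA without overlap between treatments, as were 19.9% of all rows. Clk1 (19.6, 29.7, 30.5 and 26.9 FPKM) and Clk4 (6.88, 12.3, 9.76 and 10.6 FPKM), singled out after their values were seen, were past 0.5 in males, where male control was the lowest library of each.

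Of 37 further snRNP and spliceosome proteins, 2 had an unadjusted p under 0.05 (4.7% of all rows), which were Prpf31 of the tri-snRNP (16.1, 12.4, 15.2 and 11.2 FPKM, −0.38 ± 0.12 SE in limma, unadjusted p 0.0195) and Lsm5 of the U6 ring (22.3, 27.0, 24.3 and 36.7 FPKM, 0.42 ± 0.16 SE, unadjusted p 0.0350). Both had an adjusted limma p of 0.973. In both the treatments did not overlap, which their choice by p in the same fit favours. Of 44 further RNA-binding proteins, 1 had an unadjusted limma p under 0.05, the cold-inducible Rbm3 (206, 236, 206 and 272 FPKM), named after its values were seen. Rbm10 was at 24.7, 20.9, 23.0 and 19.2 FPKM and Rbm39 at 75.0, 89.4, 86.1 and 101 FPKM. Of 13 genes of the exon junction complex and nonsense-mediated decay, 0 had an unadjusted limma p under 0.05. Acin1, a splicing-associated protein of that complex, differed by 0.10 in males and 0.07 in females.

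Adding new gene models to the gene they match changed 1 gene in kind. Hnrnph3 with its 3 models was at 25.9, 21.7, 28.9 and 23.0 FPKM, and the models held 25.4% to 41.1% of that sum. Its difference in males was then −0.24 in place of 0.09, and in females −0.32 in place of −0.43. In both sexes that was lower than the difference of Khdrbs3, which headed the downward ranking made without the models. The model matched to Nova2, the second Nova gene, was at 27.9, 26.0, 24.7 and 27.3 FPKM, above Nova1 in every library.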

How the data were processed

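RNA of neonatal hippocampus was extracted with the mirVana kit and made into libraries by Illumina protocols, 1 library of 3 pooled hippocampi for each sex and treatment. The authors deposited 1 FPKM value per gene and library, to 2 decimals with 0.01 as the lowest value, without counts. The submitters' processing notes name HISAT 0.1.6, Bowtie2 2.2.5, RSEM and the build rn6, with no role or order. The files also hold gene model lengths and protein matches, which were used to compare genes and to match 11 new gene models to family members, 9 of them to a member with a gene ID.

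Groups were taken from the sample records. Rows were joined over the files (16375 listed in all 4), and log2(FPKM + 1) was compared where a row's mean reached 1 FPKM. BPA was compared with control (2 libraries against 2), and female with male, with limma 3.58.1 (eBayes with trend) in R 4.3.3 over 13542 rows, without covariates, with Benjamini-Hochberg adjustment over all rows and a threshold of 0.05. Within a sex, 13508 rows in males and 13550 in females were compared without a test, and a difference of at least 0.5 was counted as a description.

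Depth was estimated by looking for the total that turns low values into whole fragments, and 95.1% to 98.7% of low values then lay within 0.15 fragments of one. Counting intervals (95%, normal approximation on the log ratio) rest on this estimate, and cover counting error only. Fragments without molecular identifiers are not independent molecules. The depth step and the fits were tested on simulated data. Promoter windows were taken from RefSeq (GRCr8) by gene ID.

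Genes named by rule were all genes of the 7 neuronal families, the 3 highest and the lowest of each other family, the largest like-signed and opposite BPA differences by size in whichever sex had the smaller one (4 each), genes with an unadjusted limma p under 0.05 or past 0.5 in a sex (10 genes), new gene models with a mean of at least 5 FPKM, and 2 genes of each other pathway list, of which 1 is not reported here. The members and lists were chosen with earlier results of these data known. Alternative settings were a pseudocount of 0.1, a filter at 5 FPKM or none, quantile normalization, sex or treatment as a covariate, rows with a gene ID alone, new gene models summed with their gene, other thresholds, and leaving out each library. Joins and figures were made in Python 3.11.15 (pandas 2.3.3, numpy 2.4.6, matplotlib 3.10.9, scipy 1.17.1).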

Additional observations from a re-analysis of the deposited data

Results flagged for a closer look

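Hnrnpa2b1 and Hnrnpa3 stood out because the counting interval of each excluded equal levels in both sexes, in opposite directions. Hnrnpa2b1 differed by −0.08 in males and 0.06 in females on log2(FPKM + 1), a gap of 0.14 between the sexes, and its female value became −0.04 under quantile normalization. Hnrnpa3 (223, 207, 225 and 235 FPKM, control before BPA and males before females) differed by −0.11 and 0.06, a gap of 0.17. Under quantile normalization its differences became −0.05 and 0.02. Neither gap was tested, since each rests on 1 library per sex and treatment.

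The new gene model matched to Hnrnpa0, which carries no gene ID and was outside the comparisons of the members, was at 186, 191, 114 and 162 FPKM, in the same order. Its difference was 0.03 in males and 0.51 in females (0.46 under quantile normalization), and female control was the lowest library. In limma over both sexes its unadjusted p was 0.262 and its adjusted p 0.973.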

How the results depend on the processing

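No member had an adjusted p under 0.05 in limma in the combined BPA comparison or in the comparison of the sexes under any of the settings tried. The smallest adjusted p of a member over these settings ran from 0.261 (sex as a covariate) to 1 for BPA and from 0.118 (treatment as a covariate) to 0.956 for sex. At an unadjusted p under 0.05 the counts were 1 for BPA and 9 for sex, and became 8 with sex as a covariate and 2 with new gene models summed for BPA, and 20 with treatment as a covariate, 16 under quantile normalization and 14 over rows with a gene ID for sex. Leaving out 1 library left 0 members at an adjusted p under 0.05, while the unadjusted count ran from 0 to 5 for BPA (0 without female BPA, 5 without male BPA, 3 without female control) and from 3 to 17 for sex (3 without male control, 3 without male BPA, 17 without female control), and the arm left with 1 library was assumed to vary like the other. In females the count past 0.5 became 2 (Hnrnpdl and Khdrbs2) with a pseudocount of 0.1, and 0 at a difference of at least 1. Of the other values computed, 1501 moved by less than the spread set for them and 99 by more. Libraries could not be paired by replicate, because each group holds 1 library and the labels give no replicate numbers that groups share. Only the fits with sex or treatment as a covariate compared libraries within a sex or a treatment. Differences under about the counting error of a gene, such as those of Sf3b6, Srsf9 and Mbnl1, were not detectable at this depth.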
